A study of Mus musculus with 8 samples.

Results

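The 41 genes described here encode chaperones of the endoplasmic reticulum (ER) and components of the unfolded protein response, and were picked by their symbols from a table of 34465 genes. All 41 were found in the table, and all 41 had a mean signal above the minimum used for testing. They comprise 11 chaperones and co-chaperones, 6 disulfide enzymes, 6 stress sensors and transcription factors, 4 targets of the eIF2alpha and ATF4 arm, 9 genes of ER-associated degradation and 5 genes of the translocon. RNA was sequenced from whole mouse liver in 8 libraries, 2 in each of 4 groups: Cre-positive hepatectomy, Cre-negative hepatectomy, Cre-positive sham and Cre-negative sham. All mice carried floxed alleles of Pdgfrb (b-PDGFR fl/fl), including the controls, were of the strain 129S4/SvJae/FVB and were 3 months old. Cre-positive mice carried GFAP-Cre (+/-), given in the labels as a deletion in hepatic stellate cells, and Cre-negative mice did not (GFAP-Cre -/-). Hepatectomized livers were collected 72 h after removal of part of the liver. The titles give no collection time for the sham livers. The labels speak of duplicates without saying whether each came from its own animal, so p-values measure only the spread between these samples, which may be technical. Since GFAP-Cre is driven by a promoter of a minor liver cell population and whole tissue was sequenced, each value is a mixture of all cells of the liver, and fewer cells of a type cannot be told apart from less RNA per cell.

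The ER is where secreted and membrane proteins enter the secretory pathway, fold, acquire disulfide bonds and are inspected, and the hepatocyte, which secretes most plasma proteins, depends heavily on it. When unfolded protein accumulates, the sensors IRE1alpha (Ern1), PERK (Eif2ak3) and ATF6 (Atf6) start the unfolded protein response. IRE1alpha splices the mRNA of XBP1, ATF6 is cleaved into a transcription factor, and PERK phosphorylates eIF2alpha, which lowers translation while favouring that of ATF4. XBP1 and ATF6 raise chaperones and degradation factors, and ATF4 raises genes of amino acid supply and, through CHOP (Ddit3), of cell death.

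Every value below, unless said otherwise, is a normalized signal as deposited, whose normalization and read depth are not known, so signals are compared between libraries for 1 gene and not between genes. Totals over all genes were highest in Cre-positive hepatectomy, at 10402105 and 11583777, and lowest in Cre-negative hepatectomy, at 8617664 and 9402626. Sham totals were 10262017 and 10115909 in Cre-positive and 10172188 and 10211032 in Cre-negative livers. Genes with a signal of at least 1 numbered 14881 and 16038 in Cre-positive and 17398 and 16623 in Cre-negative hepatectomy. In sham there were 15488 and 15237 in Cre-positive and 15580 and 15614 in Cre-negative livers. The members held 0.936 and 0.613% of the total in the 2 Cre-positive hepatectomy libraries and 0.534 and 0.568% in Cre-negative hepatectomy. In sham the members held 0.888 and 0.744% in Cre-positive and 0.636 and 0.732% in Cre-negative livers. No member was listed at 0 in any library, although the hepatocyte gene Alb was listed at 0 in 7 of 8 libraries, which marks an exact 0 as a possible failed estimate. Of 12 hepatocyte markers, 11 were in the table; Alb had 227226 in replicate 1 of Cre-negative hepatectomy and Serpina1c was listed at 0 in 2 libraries. The other 9 summed to 523633 and 309226 in Cre-positive hepatectomy and 209926 and 313731 in Cre-negative hepatectomy, against 486505 and 561174 in Cre-positive sham and 499781 and 493784 in Cre-negative sham. Pdgfrb itself had 63.1 and 99.9 in Cre-positive hepatectomy and 122.6 and 70.5 in Cre-negative hepatectomy, against 59.4 and 46 in Cre-positive sham and 49.8 and 63.3 in Cre-negative sham. Its libraries overlapped between genotypes after both operations, and since no source used here says which exons were floxed, the gene-level signal does not check the genotype labels.

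The hepatectomy libraries came from dividing tissue. The summed signal of 12 cell division markers was 2378 and 5456 in Cre-positive hepatectomy and 1712 and 3726 in Cre-negative hepatectomy, against 138.2 and 128.4 in Cre-positive sham and 130.5 and 162.5 in Cre-negative sham, and all 12 rose in the comparison over both genotypes. Tests used limma on log2(signal + 1) over 16443 genes whose mean signal reached 1, with p-values adjusted by Benjamini-Hochberg over all of them and called under 0.05. With 2 libraries a group, an exact two-sided permutation test of a single gene cannot give a p below 0.333.

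Of the 41 members, 2 passed the threshold when hepatectomy was compared with sham over both genotypes: Manf rose and Derl3 fell. That is 4.88% of the members, beside 4.49% of all genes tested (3.64% that rose and 0.845% that fell), a share near the background. No member passed for hepatectomy within Cre-negative livers, where 1.11% of all genes did, or within Cre-positive livers, where 0.943% did. For genotype no member passed in sham, after hepatectomy, over both operations or for the difference between the genotypes' responses, where 0.00608%, 0.0182%, 0.0122% and 0.0122% of all genes did. Without adjustment, p was under 0.05 for 8 members when Cre-negative hepatectomy was set against sham, for 9 when Cre-positive hepatectomy was and for 13 over both, and for genotype for 1 member in sham, 13 after hepatectomy, 12 over both operations and 4 for the difference. The same held for 21.3%, 13.5%, 23.8%, 0.888%, 18.3%, 8.53% and 8.09% of all genes in those comparisons, in that order.

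**Figure D1:**
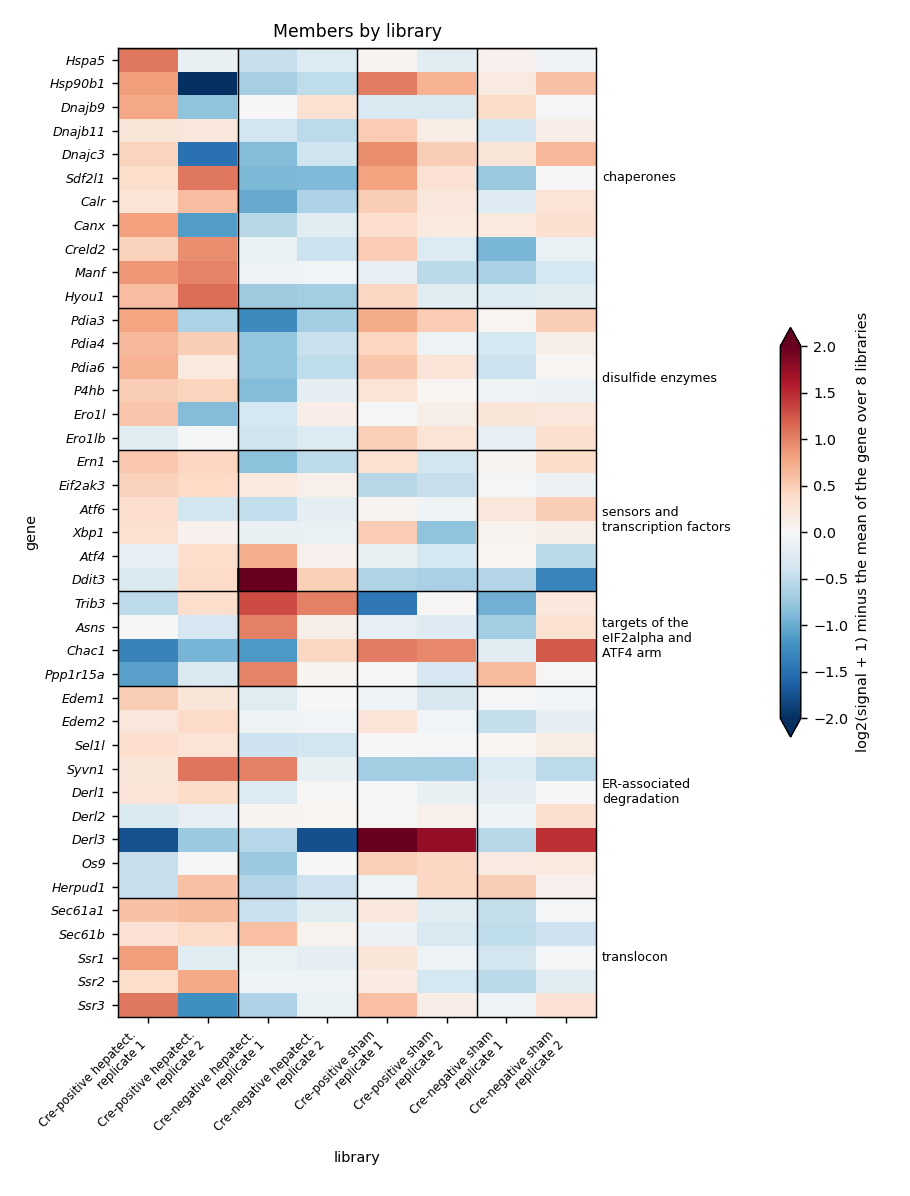
Each row is a gene and each column a library, Cre-positive hepatectomy leftmost; colour gives log2(signal + 1) minus the gene's mean over the 8 libraries, and values beyond the colour scale take its end colour. The 2 Cre-negative hepatectomy libraries are mostly blue among chaperones and disulfide enzymes, and the 2 Cre-positive hepatectomy libraries differ from each other at Hsp90b1, Dnajc3, Canx and Ssr3.

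For hepatectomy against sham, the members' median log2 fold change had opposite signs in the 2 genotypes, and no member passed the test of that difference. After hepatectomy in Cre-negative livers, both libraries lay below both sham libraries for 22 of 41 members (53.7%), beside 23.3% of all genes, and above them for 9 (22%), beside 39.7%. The median log2 fold change was −0.34 over the members and 0.21 over all genes. In Cre-positive livers, both hepatectomy libraries lay above both sham libraries for 14 members (34.1%), beside 23.9% of all genes, and below them for 6 (14.6%), beside 19.5%, with medians of 0.23 over the members and 0.02 over all genes. Over both genotypes, all 4 hepatectomy libraries were above all 4 sham libraries for 5 members (12.2%) and below for 2 (4.88%), beside 11.2% and 6.2% of all genes.

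Between the hepatectomized groups, both Cre-positive libraries lay above both Cre-negative libraries for 21 of 41 members (51.2%), beside 14.2% of all genes, and below them for 5 (12.2%), beside 26.3%. The median log2 fold change, Cre-positive over Cre-negative, was 0.33 over the members and −0.23 over all genes. In sham livers the same counts were 11 (26.8%) higher and 8 (19.5%) lower, beside 12.1% and 19.4% of all genes, with medians of 0.25 and −0.03. Over both operations, 6 members (14.6%) had all Cre-positive libraries above all Cre-negative ones and 1 (2.44%) below, beside 0.578% and 1.9%. These comparisons and those with sham share the Cre-negative hepatectomy libraries, and no separate test was made on the list. With median-of-ratios scaling the median of all genes moved to 0.00 for hepatectomy in Cre-negative livers and −0.08 for genotype after hepatectomy, and the members' medians were then −0.57 and 0.50, with the same signs.

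Some technical values moved with these groups. The 2 Cre-positive hepatectomy libraries differed from each other with GC content: over the 41 members, the log2 signal of replicate 1 minus that of replicate 2 had r = −0.83 and rho = −0.81 with the GC content of the gene's transcripts, points that share the same 2 libraries, and r was −0.52 over 15878 genes. Against the sham mean, the 7 members with GC under 45% had a median log2 difference of 0.42 in replicate 1 and −1.38 in replicate 2, and the 22 with GC of at least 50% had 0.34 and 0.54. All genes in those ranges had −0.00 and −1.12, and −0.09 and 0.56. A difference above 2-fold between the replicates was seen for 11 members in Cre-positive hepatectomy, 4 in Cre-negative hepatectomy, 2 in Cre-positive sham and 3 in Cre-negative sham. These are 26.8%, 9.76%, 4.88% and 7.32% of the members, beside 32.4%, 17.8%, 6.4% and 6.08% of all genes. Of the members under 45% GC, Hsp90b1, Dnajb9, Dnajc3, Canx, Ero1l and Ssr3 overlapped between the hepatectomized groups, and Derl2 was lower in Cre-positive livers. The members counted as higher in Cre-positive hepatectomy without overlap thus all had more GC, and the share of all genes was not split by GC. The part of GC content in the comparisons was not tested beyond the GC-corrected fit given with the alternatives.

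**Figure D2:**
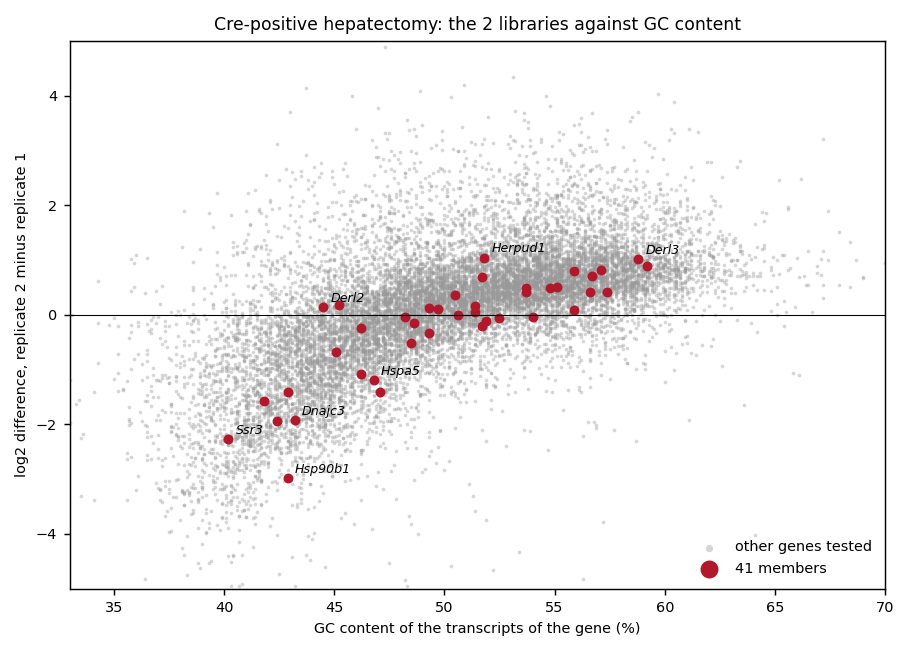
Each point is a gene, at the GC content of its transcripts (%) and at the log2 difference of the 2 Cre-positive hepatectomy libraries, replicate 2 minus replicate 1; the 41 members are red and 71 of 15878 genes lie outside the axes. Of the 7 members under 45% GC all but Derl2, at 0.14, lie below 0, down to −2.99 for Hsp90b1, and those of high GC lie mostly above it, up to 1.04 for Herpud1.

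Markers of other cells also differed between the hepatectomized groups. The summed signal of 9 macrophage markers of 10 listed was 4341 and 5125 in Cre-positive hepatectomy and 2649 and 1885 in Cre-negative hepatectomy, against 2663 and 2421 in Cre-positive sham and 1778 and 2828 in Cre-negative sham. All 9 had a higher fitted mean in Cre-positive hepatectomy (median log2 fold change 0.91), 6 of them (66.7%) without overlap, beside 14.2% of all genes. The 10 endothelial markers summed to 3472 and 4678 in Cre-positive hepatectomy and 3995 and 2045 in Cre-negative hepatectomy, against 5656 and 4503 in Cre-positive sham and 4425 and 5683 in Cre-negative sham. For 8 of the 10 (80%), both Cre-negative hepatectomy libraries lay below both Cre-negative sham libraries (median −0.94), beside 23.3% of all genes. Without overlap, 5 (50%) were higher in Cre-positive than Cre-negative hepatectomy (median 0.70), beside 14.2% of all genes. The hepatocyte markers had medians of −0.83 and 0.35 in those comparisons. Without overlap, 7 of 11 (63.6%) were lower in the one, beside 23.3% of all genes. In the other, 4 (36.4%) were higher without overlap, beside 14.2%. These 11 include Alb and Serpina1c, with their values of exactly 0.

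Of the 7 bile duct markers, 6 had a lower fitted mean in Cre-positive than Cre-negative hepatectomy (median −1.04). Without overlap, 4 of the 7 (57.1%) were lower, beside 26.3% of all genes. The 7 summed to 1803 and 610.6 in Cre-positive hepatectomy and 801.7 and 576.6 in Cre-negative hepatectomy. In sham they summed to 459.2 and 502.3 in Cre-positive and 530.6 and 558.5 in Cre-negative livers. Spp1, with 1714 and 435.7 in Cre-positive hepatectomy and 548.8 and 382.8 in Cre-negative hepatectomy, made up most of those sums. Of the 12 stellate cell markers, 9 had a lower fitted mean in Cre-positive than Cre-negative hepatectomy (median −0.15), with Gfap at −1.65 ± 0.61 (adjusted p = 0.235). Gfap signals were low, at 0.189 and 3.04 in Cre-positive and 7.35 and 4.66 in Cre-negative hepatectomy. In sham Gfap had 0.749 and 1.04 in Cre-positive and 3.57 and 2.92 in Cre-negative livers. The 12 markers summed to 3237 and 3361 in Cre-positive hepatectomy and 2971 and 2943 in Cre-negative hepatectomy, against 5054 and 3956 in Cre-positive sham and 4525 and 4938 in Cre-negative sham. Col1a1, with 481.7 and 1051 in Cre-positive hepatectomy and 316.8 and 357.7 in Cre-negative hepatectomy, contributed to the higher sums of the Cre-positive libraries. Of secretory cells rich in ER, 11 of 13 B and plasma cell markers were in the table and summed to 1508 and 1875 in Cre-positive hepatectomy and 878.9 and 1044 in Cre-negative hepatectomy, against 862.3 and 577.5 in Cre-positive sham and 921.5 and 586.5 in Cre-negative sham. Sdc1, which hepatocytes also express, made up most of that sum, with 1497 and 1842 in Cre-positive hepatectomy and 811.0 and 1006 in Cre-negative hepatectomy, while the plasma cell gene Igj was between 3.51 and 21 and Tnfrsf17 was listed at 0 in every library. The 11 pancreatic acinar markers summed to between 255.1 and 515.9, and Cela1, between 243.2 and 470.8, made up most of each sum. Cela3b, Cpb1, Prss2, Pnlip and Clps were listed at 0 in every library. The part of hepatocytes and of macrophage, endothelial, bile duct, stellate and B lineage cells in the members' differences was not tested.

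A minority of the members' promoters hold a known element of the unfolded protein response. The members were chosen as genes of that response, so the share that holds it is not independent of the choice. The ER stress response element (ERSE), which the factors NF-Y and ATF6 or XBP1 are known to bind together, was searched on both strands as CCAAT and CCACG with 9 bases of any kind between them, in RefSeq promoter windows of build GRCm38.p6, from 250 bases before to 50 bases after the gene start. Of the 35 members with a window, 10 (28.6%) held it, beside 37 of 27025 genes (0.137%). The related ERSE-II, ATTGG and CCACG with 1 base between them, was in 2 members (5.71%), Dnajb11 and Herpud1, beside 0.0444% of genes. The short motif CCACG, which both elements contain, was in 29 members (82.9%), beside 35.5% of genes. The XBP1 motif TGACGTG was in 1 member, Hspa5 (2.86%, beside 2.22%), and TGATGNAA, known as an element for ATF4 dimers, was in 4, Trib3, Asns, Chac1 and Herpud1 (11.4%, beside 4.51%). The Manf, Hyou1, Atf6, Derl1, Sec61a1 and Ssr2 genes had no window in the table. The 11 ERSE copies of the 10 members are shown because the element occurs in some chaperones, disulfide enzymes and degradation genes alike; each is read on the strand where the motif stands, with its fixed letters in capitals.
Hspa5 at chr2:34772025-34772043, plus strand: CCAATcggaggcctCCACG
Hsp90b1 at chr10:86705638-86705656, minus strand: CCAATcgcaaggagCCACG
Hsp90b1 at chr10:86705533-86705551, plus strand: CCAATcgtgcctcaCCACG
Dnajc3 at chr14:118937827-118937845, plus strand: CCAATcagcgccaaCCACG
Calr at chr8:84847075-84847093, plus strand: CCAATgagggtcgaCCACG
Canx at chr11:50325800-50325818, minus strand: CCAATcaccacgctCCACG
Creld2 at chr15:88819520-88819538, minus strand: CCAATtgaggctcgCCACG
Pdia6 at chr12:17266491-17266509, plus strand: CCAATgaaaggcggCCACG
Ero1lb at chr13:12565682-12565700, minus strand: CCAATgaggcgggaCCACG
Syvn1 at chr19:6046532-6046550, plus strand: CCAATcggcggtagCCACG
Derl3 at chr10:75893242-75893260, minus strand: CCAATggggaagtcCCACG
Between the hepatectomized groups, 5 of the 10 members with an ERSE had both Cre-positive libraries above both Cre-negative libraries and 0 below, against 11 above and 5 below among the 25 with a window but no ERSE, beside 14.2% above and 26.3% below of all genes. The median log2 fold change was 0.23 with an ERSE and 0.29 without. For hepatectomy in Cre-negative livers, 8 of the 10 were below sham and 1 above, against 12 below and 6 above among the 25, beside 23.3% below and 39.7% above of all genes, with medians of −0.55 and −0.23.

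Among the chaperones, Manf, a secreted and ER-resident factor with chaperone activity, was the member that rose after hepatectomy. Manf had 1859 and 2026 in Cre-positive hepatectomy and 949.5 and 975.3 in Cre-negative hepatectomy, against 901.8 and 698.4 in Cre-positive sham and 645.0 and 791.2 in Cre-negative sham. All 4 hepatectomy libraries were above all 4 sham libraries, and the Cre-positive ones were highest. Over both genotypes the log2 fold change was 0.86 ± 0.16 (SE, 2 libraries a group; adjusted p = 0.0354). Within Cre-positive livers it was 1.29 ± 0.23 (adjusted p = 0.0635) and within Cre-negative livers 0.43 ± 0.23 (adjusted p = 0.325), and the difference between genotypes, 0.86 ± 0.33, did not pass (adjusted p = 0.591). The call on Manf rested on several libraries: it was lost without any 1 of the 4 sham libraries or either Cre-negative hepatectomy library, over 16 alternatives the log2 fold change ranged between 0.70 and 1.02, and Manf was called in 8 of them, with adjusted p between 0.011 and 0.184.

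**Figure D3:**
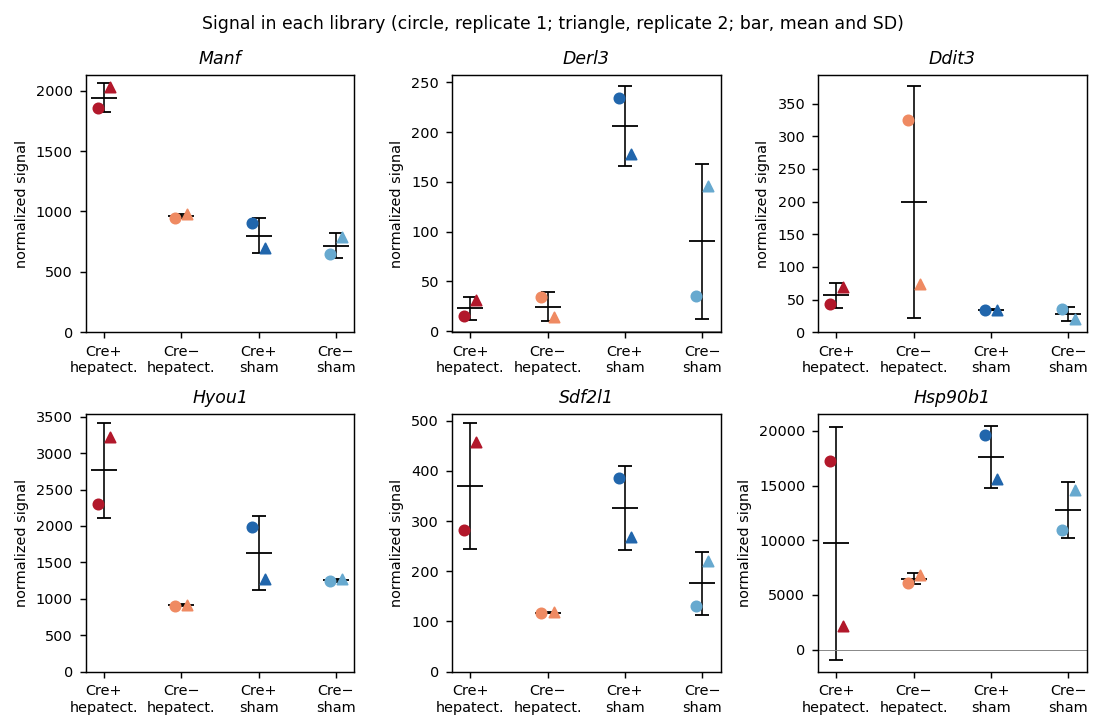
Normalized signal of 6 members in each library, by group with Cre-positive hepatectomy leftmost; circles are replicate 1, triangles replicate 2, and bars the mean and SD of the 2 libraries. Manf is higher in all hepatectomy libraries, Derl3 is low in all hepatectomy libraries and in Cre-negative sham replicate 1, Ddit3 reaches 324.7 in 1 library, and Hsp90b1 is 17265 and 2177 in the Cre-positive hepatectomy libraries.

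Hspa5 encodes BiP, the HSP70 chaperone of the ER lumen that holds the sensors inactive. The 250 bases before its start are printed because they hold both an ERSE and the XBP1 motif, in capitals.
Hspa5 at chr2:34771840-34772089, plus strand: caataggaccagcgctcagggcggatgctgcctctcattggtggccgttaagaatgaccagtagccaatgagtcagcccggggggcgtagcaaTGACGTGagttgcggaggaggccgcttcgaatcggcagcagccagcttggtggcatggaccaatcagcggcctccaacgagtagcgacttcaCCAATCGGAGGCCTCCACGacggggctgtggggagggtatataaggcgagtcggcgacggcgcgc
Hspa5 had 8289 and 3603 in Cre-positive hepatectomy and 2900 and 3296 in Cre-negative hepatectomy, against 4149 and 3429 in Cre-positive sham and 4237 and 3807 in Cre-negative sham. Replicate 1 of Cre-positive hepatectomy stood above the other 7, which lay between 2900 and 4237. The log2 fold change for hepatectomy over both genotypes was 0.08 ± 0.27 (95% interval −0.56 to 0.72), and that for genotype after hepatectomy was 0.82 ± 0.39 (95% interval −0.08 to 1.73, adjusted p = 0.306).

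Hsp90b1, the HSP90 of the ER (GRP94), had 17265 and 2177 in Cre-positive hepatectomy and 6108 and 6828 in Cre-negative hepatectomy, against 19651 and 15583 in Cre-positive sham and 10977 and 14564 in Cre-negative sham. Both Cre-negative hepatectomy libraries were below every sham library, while the Cre-positive hepatectomy libraries were a high and the lowest value of the 8. Hsp90b1 has a GC content of 42.9%. Calreticulin (Calr), a lectin chaperone for glycoproteins, had 6012 and 7644 in Cre-positive hepatectomy and 2475 and 3259 in Cre-negative hepatectomy, against 6992 and 5866 in Cre-positive sham and 4198 and 6068 in Cre-negative sham. Its 2 Cre-negative hepatectomy values were the lowest of the 8, and the log2 fold change for genotype after hepatectomy was 1.25 ± 0.29 (adjusted p = 0.131).

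The largest genotype differences of the members after hepatectomy were those of Sdf2l1 and Hyou1, named here after their values were seen. Sdf2l1, part of BiP's chaperone complexes, had 281.5 and 458.1 in Cre-positive hepatectomy and 117.0 and 118.7 in Cre-negative hepatectomy, against 386.0 and 267.6 in Cre-positive sham and 130.7 and 220.8 in Cre-negative sham. Cre-positive libraries were above Cre-negative libraries after both operations, and the log2 fold change was 1.60 ± 0.37 after hepatectomy (adjusted p = 0.131) and 1.26 ± 0.26 over both operations (adjusted p = 0.386). Hyou1 (GRP170), a large HSP70-like chaperone that exchanges BiP's nucleotide, had 2300 and 3222 in Cre-positive hepatectomy and 906.2 and 919.9 in Cre-negative hepatectomy, against 1984 and 1274 in Cre-positive sham and 1238 and 1268 in Cre-negative sham. The 2 Cre-negative hepatectomy libraries were the lowest and the 2 Cre-positive ones the highest, with a log2 fold change of 1.58 ± 0.29 after hepatectomy (adjusted p = 0.108, the lowest of any member). With the leading isoform in place of the sum of isoforms it was 0.52 (adjusted p = 0.312).

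In all, 7 of 11 chaperones (63.6%) had both Cre-positive hepatectomy libraries above both Cre-negative ones, beside 14.2% of all genes, and 0 below, beside 26.3%. In Cre-negative livers 8 of 11 (72.7%) were lower in hepatectomy than sham without overlap, beside 23.3% of all genes. The lectin chaperone Canx ranged between 1189 and 4563 over the 8 libraries, the co-chaperones Dnajb9, Dnajb11 and Dnajc3 between 87.8 and 264.8, 683.2 and 1397, and 391.6 and 2101, and Creld2, an ER stress-inducible protein, between 421.4 and 1513. For Canx, Dnajb9 and Dnajc3, replicate 2 of Cre-positive hepatectomy was the lowest of all libraries.

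**Figure D4:**
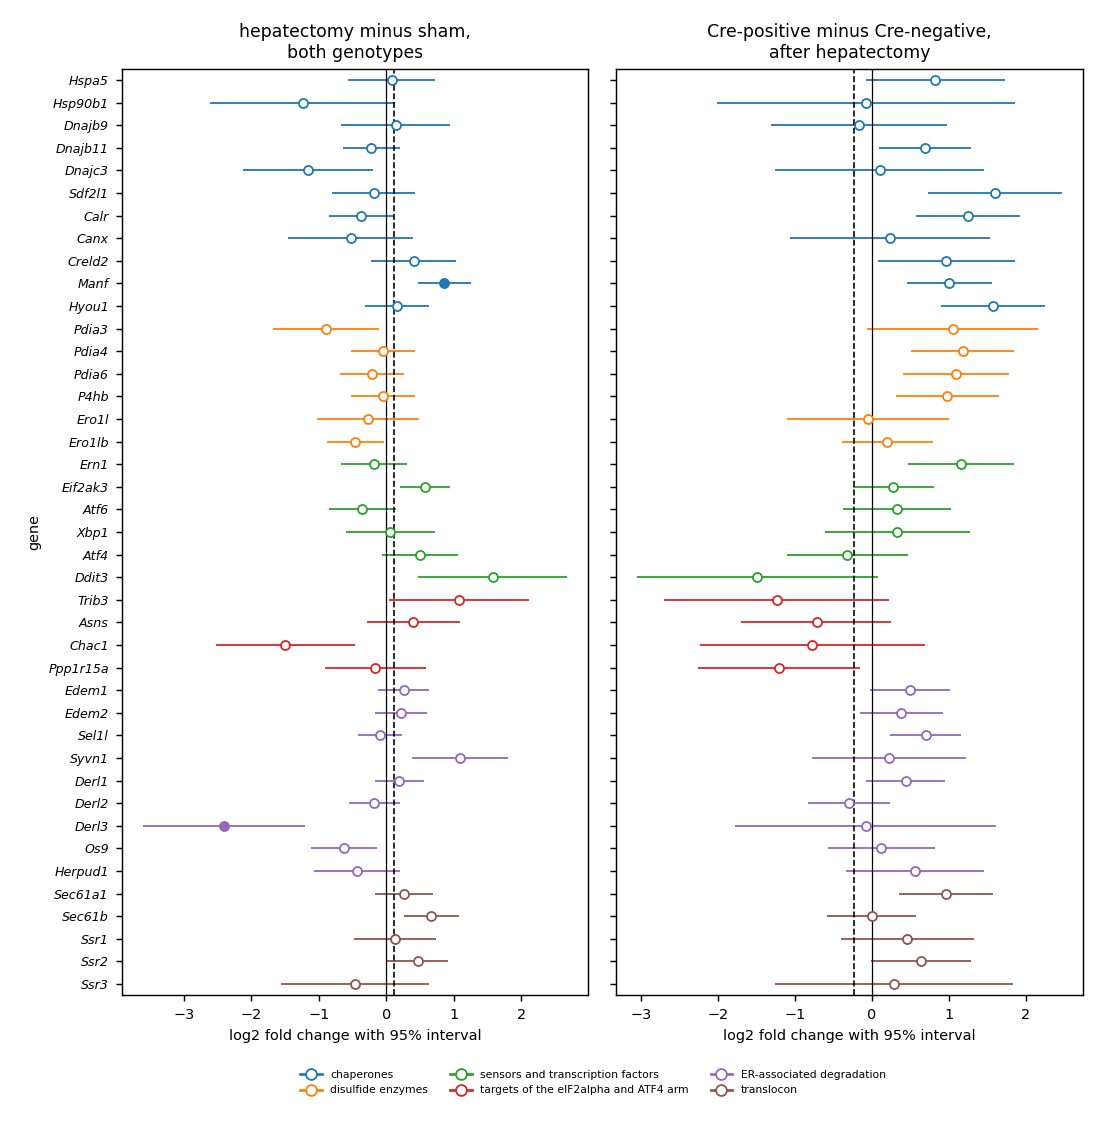
Log2 fold change with its 95% interval for each member, for hepatectomy minus sham over both genotypes (left) and Cre-positive minus Cre-negative after hepatectomy (right); filled points passed adjusted p under 0.05, colour gives the role, and the dashed line is the median of all genes tested. Manf and Derl3 are filled on the left, none on the right, where 29 of 41 members lie above 0.

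The disulfide enzymes had the highest median pairwise correlation of the 6 role groups, as a description of 8 libraries. The median pairwise r of their log2 signals was 0.64 over 15 pairs, beside 0.36 over 55 pairs of chaperones and 0.15 over the 820 pairs of all members, from the same 8 libraries. P4hb, the founding protein disulfide isomerase, had 15480 and 14997 in Cre-positive hepatectomy and 6084 and 9763 in Cre-negative hepatectomy, against 13384 and 11312 in Cre-positive sham and 10375 and 10214 in Cre-negative sham. Its Cre-positive hepatectomy libraries were the 2 highest and its Cre-negative ones the 2 lowest, and the log2 fold change between them was 0.98 ± 0.29 (adjusted p = 0.168). Pdia3 (ERp57), which works on glycoproteins with calnexin and calreticulin, had 6929 and 2581 in Cre-positive hepatectomy and 1659 and 2514 in Cre-negative hepatectomy, against 6717 and 5724 in Cre-positive sham and 4108 and 5649 in Cre-negative sham. Of its 4 hepatectomy libraries, 3 were below every sham library, and the log2 fold change for hepatectomy was −0.89 ± 0.33 over both genotypes (adjusted p = 0.171). Pdia6, an isomerase known to act on the sensor IRE1alpha, had 5927 and 4171 in Cre-positive hepatectomy and 2114 and 2566 in Cre-negative hepatectomy, against 5367 and 4366 in Cre-positive sham and 2705 and 3774 in Cre-negative sham. Its Cre-positive libraries were above its Cre-negative libraries after both operations (log2 fold change 0.85 ± 0.21 over both, adjusted p = 0.47).

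All 6 disulfide enzymes had both Cre-negative hepatectomy libraries below both Cre-negative sham libraries, beside 23.3% of all genes, with log2 fold changes between −1.24 and −0.34 and no adjusted p under 0.201. Both Cre-positive hepatectomy libraries were above both Cre-negative ones for 5 of 6 (83.3%), beside 14.2% of all genes. The remaining members of the group are Pdia4, between 796.2 and 2140, and the oxidases that recharge the isomerases, Ero1l, between 92.3 and 248.0, and Ero1lb, between 290.0 and 530.9. Ero1l was the exception in the genotype comparison, with 248.0 and 92.3 in Cre-positive hepatectomy around 132.6 and 184.7 in Cre-negative hepatectomy.

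Of the 3 sensors, none passed the test in any comparison. Ern1 had 449.3 and 417.0 in Cre-positive hepatectomy and 174.4 and 213.9 in Cre-negative hepatectomy, against 382.9 and 239.6 in Cre-positive sham and 318.7 and 399.1 in Cre-negative sham. The Cre-negative hepatectomy libraries were the lowest of the 8 and the Cre-positive hepatectomy libraries the highest (log2 fold change between them 1.16 ± 0.30, adjusted p = 0.142). Eif2ak3 had 187.5 and 179.8 in Cre-positive hepatectomy and 156.0 and 146.2 in Cre-negative hepatectomy, against 92.5 and 98.9 in Cre-positive sham and 134.4 and 125.7 in Cre-negative sham. All 4 hepatectomy libraries were above all 4 sham libraries, with a log2 fold change over both genotypes of 0.57 ± 0.16 (adjusted p = 0.0977). Atf6 had 309.7 and 191.0 in Cre-positive hepatectomy and 173.7 and 215.6 in Cre-negative hepatectomy, against 254.1 and 234.2 in Cre-positive sham and 287.9 and 347.5 in Cre-negative sham. Its Cre-negative libraries were lower after hepatectomy than in sham, and its Cre-positive ones overlapped.

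Xbp1, whose mRNA IRE1alpha splices, had 2665 and 2300 in Cre-positive hepatectomy and 1957 and 1968 in Cre-negative hepatectomy, against 3069 and 1234 in Cre-positive sham and 2263 and 2330 in Cre-negative sham. The Cre-positive sham libraries held both the highest and the lowest value, and the log2 fold change for hepatectomy was 0.06 ± 0.28 over both genotypes (95% interval −0.60 to 0.73). The deposited isoform Xbp1-201 held 67 and 67.8% of the gene's signal in Cre-positive hepatectomy and 62 and 66% in Cre-negative hepatectomy, against 58.2 and 64.2% in Cre-positive sham and 57.2 and 66.3% in Cre-negative sham. The isoform names were not tied to the spliced or unspliced form, so these shares do not measure the splicing by IRE1alpha. Atf4 had 438.3 and 623.6 in Cre-positive hepatectomy and 816.3 and 521.6 in Cre-negative hepatectomy, against 443.6 and 384.5 in Cre-positive sham and 505.5 and 336.3 in Cre-negative sham, with overlap between hepatectomy and sham (log2 fold change 0.50 ± 0.24, adjusted p = 0.246). ATF4 is controlled mainly at translation, which RNA does not show.

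Ddit3, which encodes CHOP, had 43.2 and 69.6 in Cre-positive hepatectomy and 324.7 and 74.2 in Cre-negative hepatectomy, against 34.6 and 33.6 in Cre-positive sham and 35.1 and 20.7 in Cre-negative sham. All 4 hepatectomy libraries were above all 4 sham libraries, and 1 Cre-negative library stood far above the other 7. The log2 fold change was 1.58 ± 0.47 over both genotypes (adjusted p = 0.112), 2.48 ± 0.66 in Cre-negative livers (adjusted p = 0.118) and 0.67 ± 0.66 in Cre-positive livers (adjusted p = 0.668).

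The 4 targets of the eIF2alpha and ATF4 arm differed from the chaperones in direction between the hepatectomized groups: 3 of 4 had both Cre-positive libraries below both Cre-negative libraries, beside 26.3% of all genes. Their median log2 fold change was −0.99, beside −0.23 for all genes and 0.82 for the 11 chaperones. None of these differences passed the test, and the 2 role groups were not tested against each other. The 41 other targets of ATF4 did not share the lower direction, with a median of 0.09 in this comparison. Of them, 8 (19.5%) were higher and 10 (24.4%) lower without overlap, beside 14.2% and 26.3% of all genes. Asns, the asparagine synthetase, had 239.6 and 189.9 in Cre-positive hepatectomy and 480.0 and 259.4 in Cre-negative hepatectomy, against 213.3 and 199.7 in Cre-positive sham and 148.5 and 294.4 in Cre-negative sham. Ppp1r15a (GADD34), the phosphatase subunit that reverses eIF2alpha phosphorylation, had 28.1 and 49.8 in Cre-positive hepatectomy and 122.2 and 62.9 in Cre-negative hepatectomy, against 60.6 and 47.7 in Cre-positive sham and 95 and 62 in Cre-negative sham. Its Cre-positive libraries were below its Cre-negative libraries after both operations (log2 fold change −0.86 ± 0.32 over both, adjusted p = 0.567).

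Chac1, which degrades glutathione, had 18.9 and 25.4 in Cre-positive hepatectomy and 21.8 and 66.3 in Cre-negative hepatectomy, against 101.2 and 96.7 in Cre-positive sham and 42.4 and 116.9 in Cre-negative sham. Chac1 was thus lower after hepatectomy in Cre-positive livers without overlap and overlapped in Cre-negative livers (log2 fold change −1.50 ± 0.44 over both, adjusted p = 0.109). Trib3, a pseudokinase that CHOP and ATF4 induce, had 12.6 and 24 in Cre-positive hepatectomy and 47.5 and 38.3 in Cre-negative hepatectomy, against 6.25 and 18.9 in Cre-positive sham and 9.04 and 21.6 in Cre-negative sham. Its Cre-negative hepatectomy libraries were the 2 highest (log2 fold change over sham 1.54 ± 0.63, adjusted p = 0.221).

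Derl3, a derlin of the membrane channel through which misfolded proteins leave the ER, was the member that fell after hepatectomy. The 250 bases before its start are printed with its ERSE, here on the opposite strand to the gene, in capitals.
Derl3 at chr10:75893148-75893397, plus strand: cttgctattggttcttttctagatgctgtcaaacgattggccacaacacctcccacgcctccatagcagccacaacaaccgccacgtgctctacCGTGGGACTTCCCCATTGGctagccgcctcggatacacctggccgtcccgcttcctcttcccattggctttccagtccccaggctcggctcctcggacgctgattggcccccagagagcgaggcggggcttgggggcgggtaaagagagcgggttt
Derl3 had 14.9 and 30.9 in Cre-positive hepatectomy and 34.8 and 14.7 in Cre-negative hepatectomy, against 234.5 and 178.1 in Cre-positive sham and 35.1 and 145.6 in Cre-negative sham. Of the 4 sham libraries, 3 were far above the hepatectomy libraries, and replicate 1 of Cre-negative sham was just above the highest of them. The log2 fold change was −2.40 ± 0.51 over both genotypes (adjusted p = 0.0471), −3.19 ± 0.72 in Cre-positive livers (adjusted p = 0.12) and −1.62 ± 0.72 in Cre-negative livers (adjusted p = 0.253), and the genotypes' responses were not shown to differ (−1.58 ± 1.02, adjusted p = 0.711). Over 16 alternatives the log2 fold change ranged between −2.91 and −1.90 with adjusted p between 0.0161 and 0.194, and Derl3 was called in 6 of them. The call was lost without any 1 library except replicate 1 of Cre-positive hepatectomy, without which the adjusted p was 0.0413.

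Of the other derlins, Derl1 lay between 642.3 and 999.9 and Derl2 between 533.3 and 821.5 over the 8 libraries, with log2 fold changes for hepatectomy of 0.19 ± 0.16 and −0.18 ± 0.16 over both genotypes. Herpud1, an ER membrane protein that gathers the degradation machinery, carries both an ERSE-II and an ATF4-type element in the 250 bases before its start, shown in capitals.
Herpud1 at chr8:94386179-94386428, plus strand: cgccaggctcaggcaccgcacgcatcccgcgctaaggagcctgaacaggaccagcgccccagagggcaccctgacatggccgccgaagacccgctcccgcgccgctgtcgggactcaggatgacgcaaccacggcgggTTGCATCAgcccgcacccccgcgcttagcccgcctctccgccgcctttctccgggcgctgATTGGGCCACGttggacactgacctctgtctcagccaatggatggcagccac
Herpud1 had 2509 and 5147 in Cre-positive hepatectomy and 2287 and 2588 in Cre-negative hepatectomy, against 3192 and 4577 in Cre-positive sham and 4852 and 3640 in Cre-negative sham. Both Cre-negative hepatectomy libraries were below every sham library, and the Cre-positive ones were spread over nearly the whole range.

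Os9, a lectin that selects glycoproteins for degradation, had 1325 and 1766 in Cre-positive hepatectomy and 1084 and 1817 in Cre-negative hepatectomy, against 2530 and 2422 in Cre-positive sham and 2037 and 2092 in Cre-negative sham. All 4 hepatectomy libraries were below all 4 sham libraries, with a log2 fold change of −0.63 ± 0.21 (adjusted p = 0.142). Sel1l, the partner of the ubiquitin ligase of this pathway, had 1013 and 977.1 in Cre-positive hepatectomy and 607.2 and 617.7 in Cre-negative hepatectomy, against 807.9 and 793.4 in Cre-positive sham and 831.5 and 897.0 in Cre-negative sham. Cre-positive values were highest and Cre-negative values lowest after hepatectomy (log2 fold change between them 0.70 ± 0.20, adjusted p = 0.164). The ligase itself, Syvn1 (HRD1), had 775.9 and 1371 in Cre-positive hepatectomy and 1322 and 592.2 in Cre-negative hepatectomy, against 406.7 and 402.3 in Cre-positive sham and 540.3 and 457.6 in Cre-negative sham. All 4 hepatectomy libraries were above all sham libraries, with a log2 fold change of 1.09 ± 0.30 (adjusted p = 0.0954). Edem1 and Edem2, which process the mannose of misfolded glycoproteins, lay between 637.4 and 1127 and between 356.9 and 643.1.

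The translocon carries nascent chains into the ER. Sec61a1, its channel subunit, had 2627 and 2724 in Cre-positive hepatectomy and 1282 and 1472 in Cre-negative hepatectomy, against 2035 and 1490 in Cre-positive sham and 1264 and 1697 in Cre-negative sham. The 2 Cre-positive hepatectomy libraries were the highest (log2 fold change against Cre-negative 0.96 ± 0.26, adjusted p = 0.156). Sec61b, a small subunit of the channel, had 1783 and 1898 in Cre-positive hepatectomy and 2223 and 1527 in Cre-negative hepatectomy, against 1344 and 1179 in Cre-positive sham and 1031 and 1094 in Cre-negative sham. All 4 hepatectomy libraries were above all sham libraries (log2 fold change 0.67 ± 0.18, adjusted p = 0.0837). Of the translocon-associated proteins, Ssr3 had 1856 and 383.7 in Cre-positive hepatectomy and 580.3 and 817.2 in Cre-negative hepatectomy, against 1356 and 981.2 in Cre-positive sham and 837.3 and 1090 in Cre-negative sham, and at a GC content of 40.2% it had the lowest GC of the members. Ssr1 lay between 628.2 and 1450 and Ssr2 between 460.1 and 1130.

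The deposited isoforms gave a second view of the members. The 41 genes had 153 isoforms in the table: 13 had 1 each, and 28 had more. In both Cre-negative hepatectomy libraries the leading isoform, that of highest mean signal, held a larger share of its gene's signal than in any of the other 6 libraries for 10 of the 28 (35.7%), beside 19.9% of 10946 genes with several isoforms, and a smaller share for 7 (25%), beside 16.6%. Pdia3-001 held 67.7 and 68.6% in Cre-positive hepatectomy and 99.9 and 83.9% in Cre-negative hepatectomy, against 67.7 and 68.2% in Cre-positive sham and 67.5 and 66.8% in Cre-negative sham. Sel1l-001 held 53.7 and 34.5% in Cre-positive hepatectomy and 80.5 and 84% in Cre-negative hepatectomy, against 56.2 and 56.3% in Cre-positive sham and 54.7 and 60.6% in Cre-negative sham. In the other direction, Trib3-001 held 94.9 and 49.5% in Cre-positive hepatectomy and 23.5 and 25.7% in Cre-negative hepatectomy, against 88.3 and 94.5% in Cre-positive sham and 82 and 53.2% in Cre-negative sham.

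Some isoforms had far less signal in both Cre-negative hepatectomy libraries than in the other 6. Hspa5-004 had 189.8 and 89.1 in Cre-positive hepatectomy and 0.000568 and 0.00453 in Cre-negative hepatectomy, against 143.3 and 69.5 in Cre-positive sham and 149.3 and 45.2 in Cre-negative sham. Sel1l-006 had 407.3 and 542.1 in Cre-positive hepatectomy and 16.5 and 56.6 in Cre-negative hepatectomy, against 295.8 and 290.1 in Cre-positive sham and 320.3 and 305.4 in Cre-negative sham. For Hyou1 the isoforms differed in how they divided the genotypes: Hyou1-001 had 965.2 and 866.9 in Cre-positive hepatectomy and 627.5 and 650.6 in Cre-negative hepatectomy, while Hyou1-002 had 730.8 and 1383 in Cre-positive hepatectomy and 250.9 and 167.0 in Cre-negative hepatectomy. Most of Hyou1's genotype difference in the gene sum thus lay in isoforms other than the leading one. Reads are shared between isoforms by estimation, isoform values were not tested, and whether the estimates were made alike in all libraries was not tested.

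**Figure D5:**
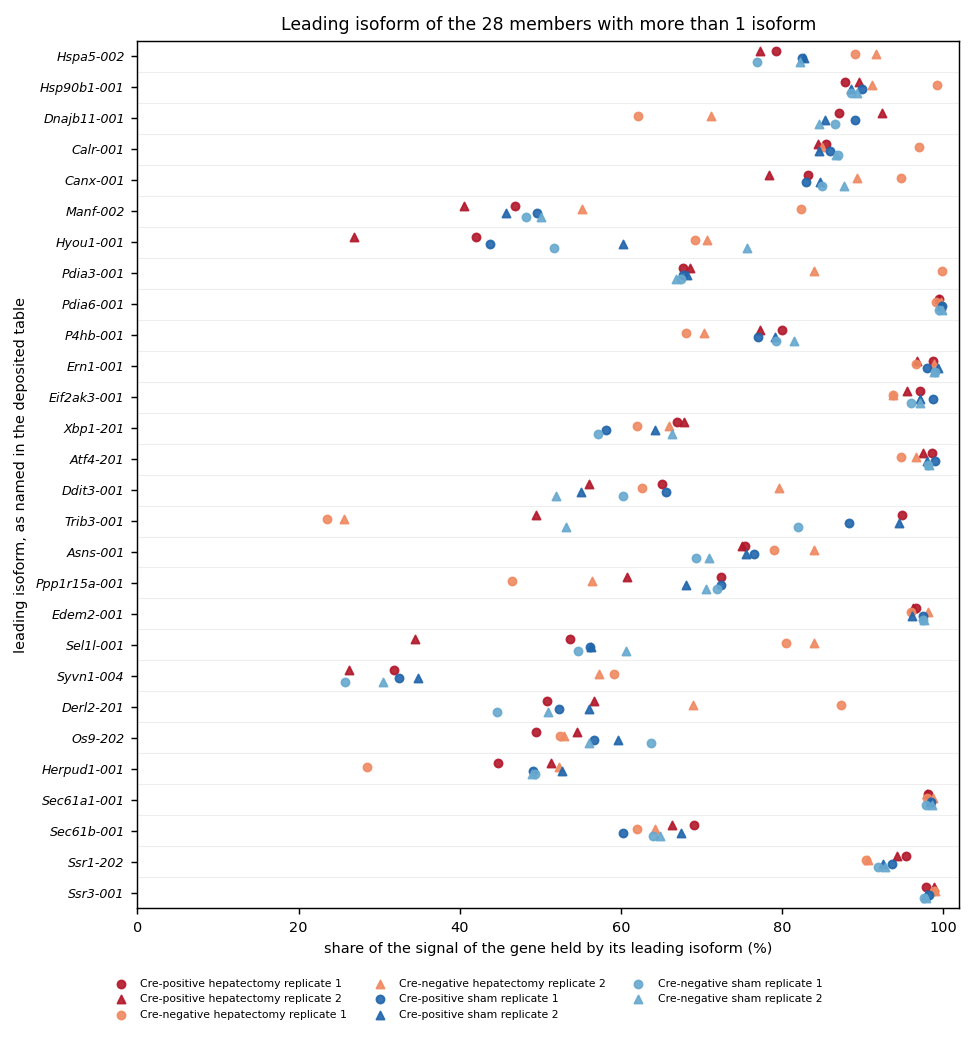
Share of a gene's signal held by its leading isoform (%), for the 28 members with more than 1 isoform; circles are replicate 1, triangles replicate 2, and colours the 4 groups. The 2 Cre-negative hepatectomy libraries stand to the right of the other 6 for Pdia3, Sel1l and Syvn1 and to the left for Dnajb11, P4hb and Trib3.

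Other genes of the same pathways were set beside all genes tested. For hepatectomy over both genotypes, 3.64% of all genes rose and 0.845% fell. Over both genotypes hepatectomy raised 1 of 32 other ER folding genes (3.12%), Fkbp11, a prolyl isomerase of secretory cells, with 700.1 and 582.5 in Cre-positive hepatectomy and 779.9 and 330.1 in Cre-negative hepatectomy, against 274.4 and 247.5 in Cre-positive sham and 97.3 and 197.1 in Cre-negative sham (log2 fold change 1.58 ± 0.33, adjusted p = 0.0465). Among 41 other targets of ATF4, 7 rose (17.1%) and 0 fell, beside 3.64% of all genes that rose. The 4 with the smallest adjusted p were Cars, the cysteinyl-tRNA synthetase (1.08 ± 0.16, adjusted p = 0.0161), Aldh18a1 of proline synthesis (1.86 ± 0.29, adjusted p = 0.0181), Tnfrsf10b, a death receptor (1.98 ± 0.34, adjusted p = 0.0252), and Psat1 of serine synthesis (2.20 ± 0.40, adjusted p = 0.0295). Psat1 had 19.8 and 23 in Cre-positive hepatectomy and 20.8 and 16.6 in Cre-negative hepatectomy, against 1.34 and 5.56 in Cre-positive sham and 3.01 and 5.95 in Cre-negative sham. No gene was called among 21 other genes of ER-associated degradation, 31 of translocation and glycosylation and 32 of ER to Golgi transport. Nor was any among 24 other sensors and regulators and 25 of the heat shock response, beside 4.49% of all genes over both genotypes. Cre-negative hepatectomy lay below Cre-negative sham without overlap for 61.9%, 29%, 59.4%, 29.2% and 48% of these lists in turn, beside 23.3% of all genes. It lay above for 9.52%, 41.9%, 15.6%, 25% and 12%, beside 39.7%. For the other folding genes and ATF4 targets it lay below for 28.1% and 22%, and above for 31.2% and 48.8%. For genotype, no gene of these lists was called in any comparison, beside at most 0.0182% of all genes. Both Cre-positive hepatectomy libraries lay above both Cre-negative ones for 50% of ER to Golgi, 42.9% of degradation and 38.7% of translocation genes. The share was 37.5% for sensors and regulators, 20% for heat shock, 19.5% for ATF4 targets and 15.6% for folding, beside 14.2% of all genes. The shares below were 3.12%, 0%, 6.45%, 4.17%, 4%, 24.4% and 12.5%, in the same order, beside 26.3% of all genes.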

How the data were processed

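Whole-liver RNA was purified with Trizol and a spin column with DNase, and TruSeq libraries were built, per the labels' protocols. The authors deposited a normalized signal for each gene and each isoform. The submitters' processing notes name TopHat, Cufflinks, mm9 and NCBIM37, without versions or roles. How the signal was normalized is not stated in what was used here. Depth is therefore unknown, and no counting interval is given. The design had assumed FPKM, and its test was kept. Libraries were grouped by their titles.

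One linear model with 4 group means over all 8 libraries was fitted with limma 3.58.1 in R 4.3.3 to log2(signal + 1), which understates changes of low genes, for 16443 genes whose mean signal reached 1 (trended empirical Bayes, 4 residual and 3.25 prior degrees of freedom). Tests were two-sided, and 7 comparisons were made. The procedure was run on simulated data with independent normal errors and some genes changed by a known amount. Those data hold no GC-related difference between replicates, so that run does not check the tests against one. Errors are SE unless stated. GC content came from GENCODE transcripts (96.6% of genes tested). Promoters came from RefSeq, build GRCm38.p6, and were matched by symbol; no coordinates of the files were combined with them. All columns belonged to these 8 libraries.

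The members and the gene lists were chosen with earlier results of these data known. Named in full are members past the threshold, up to 3 of highest mean signal in each role group, and the sensors and factors Ern1, Eif2ak3, Atf6, Xbp1, Atf4 and Ddit3; of other lists, up to 4 called genes. Hyou1, Sdf2l1, Syvn1, Trib3 and the isoforms were added after their values were seen. Alternatives were pseudocounts of 0.1 and 10, no filter or a mean of at least 10, median-of-ratios scaling, quantile normalization, a GC correction (loess, span 0.3), only the groups compared, each library left out and, chosen after seeing the data, the leading isoform in place of the gene sum. Figures were drawn with matplotlib 3.10.9.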

Additional observations from a re-analysis of the deposited data

Results flagged for a closer look

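Between Cre-positive and Cre-negative livers, 5 members had both hepatectomy libraries on opposite sides of both sham libraries: higher than sham in Cre-positive livers and lower in Cre-negative livers. The difference of the log2 response to hepatectomy, Cre-positive minus Cre-negative, was 1.40 for Ern1 (adjusted p = 0.552), 1.23 for Hyou1 (adjusted p = 0.573), 0.91 for Pdia4 (adjusted p = 0.633), 0.81 for Sel1l (adjusted p = 0.584) and 0.73 for P4hb (adjusted p = 0.677). None of these tests passed the threshold. The 5 are 12.2% of the members, beside 418 of 16443 genes (2.54%) that moved in these directions and 1126 (6.85%) that moved oppositely in either way. Ern1, the sensor IRE1alpha, Pdia4 and P4hb, which form disulfide bonds, Hyou1, a chaperone, and Sel1l, a degradation factor, belong to 4 role groups. With the leading isoform in place of the gene sum, the difference for Hyou1 was 0.46. Groups of 2 libraries are too small for single libraries to be tested as outliers.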

How the results depend on the processing

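No paired analysis was possible because the titles number the libraries in one run and no number is shared between groups. Over both genotypes, 2 members were called for hepatectomy; 1 was called with a pseudocount of 10 (Manf), without a filter (Manf) and with median-of-ratios scaling (Derl3), 0 with the leading isoform, and between 0 and 12 with 1 library left out. The 12 were called without replicate 1 of Cre-positive hepatectomy, where 32.7% of all genes were, and the other library of that group was then assumed to vary like the other groups; without any sham library or replicate 1 of Cre-negative hepatectomy the count was 0. Within Cre-positive livers 0 members were called, 2 with the GC correction (Manf and Derl3), and between 0 and 6 with 1 library left out. For genotype after hepatectomy, over both operations and for the difference of responses, the counts were 0, and between 0 and 6, 0 and 2, and 0 and 1 with 1 library left out, the highest each time without replicate 1 of Cre-positive hepatectomy. That library's absence moved 13% of all genes past the threshold for genotype after hepatectomy. Hepatectomy in Cre-negative livers and genotype in sham gave 0 members under every alternative. For single members, 4493 values kept their direction and side of the threshold or moved by less than the spread, 30 passed the threshold only under the alternative, 18 no longer passed, 215 uncalled values moved, and no called value reversed. Except without replicate 1 of Cre-positive hepatectomy, the share of all genes called under an alternative is not given here. The counts of members called under those alternatives therefore cannot be set against a background. Fits of only the groups compared were not made for averaged comparisons, which use all 8 libraries. The cause of these changes was not tested, and with 2 libraries a group and unknown depth, members that missed the threshold are not shown to be unchanged.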
